A study of Mus musculus with 12 samples.

Results

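Glutamate, GABA and glycine receptor genes were followed in whole mouse embryos that lack *Carm1* or *Pax3*. Members were chosen by symbol alone: the AMPA (Gria), NMDA (Grin), kainate (Grik), delta (Grid) and metabotropic (Grm) glutamate receptor genes, the GABA-A subunit genes (Gabr followed by a subunit letter) and the glycine receptor genes (Glra and Glrb). The rule found 50 of the 23420 genes in the count tables: 4 Gria, 7 Grin, 5 Grik, 2 Grid, 8 Grm, 19 Gabr and 5 Glr genes. RNA was sequenced at embryonic day 12.5 (E12.5) from 12 libraries, 1 per embryo and 3 per group. In the *Carm1* line, on a C57BL/6 strain, embryos homozygous for the null allele Carm1tm1Mtb (Carm1 KO/KO) were compared with wild-type embryos. In the *Pax3* line, a closed colony of mixed background (CBA/Ca, 101 and C3H/He), embryos homozygous for the splotch allele Pax3Sp2H (Pax3 Sp2H/Sp2H) were compared with wild-type embryos of that line. Both lines were bred by crossing heterozygotes, both alleles act in every tissue from conception, and the lines differ in strain and in the laboratory that kept them. The comparison within each line asked which receptor transcripts change when the gene is lost.

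Glutamate, GABA and glycine are the fast transmitters of the central nervous system. AMPA, NMDA and kainate receptors are tetrameric cation channels opened by glutamate, whereas metabotropic receptors signal through G proteins. GABA-A and glycine receptors are pentameric chloride channels that are often excitatory in embryonic neurons, because the chloride exporter KCC2 is still scarce. Many of these subunits are transcribed in newborn neurons before synapses form. CARM1 is an arginine methyltransferase that acts as a transcriptional coactivator, and PAX3 is a transcription factor of the dorsal neural tube, neural crest and muscle progenitors.

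Library totals lay between 17183344 and 23518692 counts. Levels are given as CPM, the share of a library's counts, after TMM scaling of library totals within each line. *Carm1* itself measured 151, 145 and 137 CPM in wild-type and 71.2, 69.2 and 76.1 CPM in Carm1 KO/KO libraries. *Pax3* measured 30.9, 24.9 and 28.3 CPM in wild-type and 22.4, 22.0 and 18.1 CPM in Pax3 Sp2H/Sp2H libraries. Both targeted genes were lower in their own line by edgeR's quasi-likelihood test (log2 fold change -1.0 and -0.43, edgeR adjusted *P* = 1.2e-15 and 0.0014). Pax3Sp2H is a small deletion within the gene that leaves most of the transcript, so the level of *Pax3* is a weak check of that label. All 14 neuronal markers and all 10 neural progenitor markers of the fixed lists were detected in every library, as were the markers of sensory and sympathetic ganglia, muscle, heart, liver, blood and endothelium. Reads of Y-linked genes marked 1 of 6 libraries in the *Carm1* line, wild-type replicate 3. They marked 3 of 6 in the *Pax3* line, wild-type replicates 2 and 3 and Pax3 Sp2H/Sp2H replicate 3. They were thus uneven between the groups of each line, and a term for this was among the alternatives.

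RefSeq start sites of GRCm38.p6 were available for 34 of the 50 genes, giving 41 windows of 250 bases upstream. Shown here are the windows of the 4 genes whose change in the *Carm1* line was called under every alternative and that have a window: *Gria2* (chr3:80802836-80803085, minus strand), *Gabra2* (chr5:71095850-71096099, minus strand), *Glra2* (chrX:165327394-165327643, minus strand) and *Grm2* (chr9:106656110-106656359, minus strand). They are written in the direction of the gene, and capitals mark the matches described after them.
Gria2: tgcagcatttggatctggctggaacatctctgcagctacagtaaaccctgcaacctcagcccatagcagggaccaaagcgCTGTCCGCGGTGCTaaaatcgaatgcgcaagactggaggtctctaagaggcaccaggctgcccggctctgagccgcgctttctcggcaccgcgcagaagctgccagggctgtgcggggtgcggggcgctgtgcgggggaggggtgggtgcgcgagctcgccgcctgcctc
Gabra2: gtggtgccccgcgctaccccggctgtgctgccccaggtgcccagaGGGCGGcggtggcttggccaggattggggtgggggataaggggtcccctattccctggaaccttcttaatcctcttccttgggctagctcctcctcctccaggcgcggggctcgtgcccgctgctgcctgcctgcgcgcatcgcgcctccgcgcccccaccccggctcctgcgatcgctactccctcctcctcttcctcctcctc
Glra2: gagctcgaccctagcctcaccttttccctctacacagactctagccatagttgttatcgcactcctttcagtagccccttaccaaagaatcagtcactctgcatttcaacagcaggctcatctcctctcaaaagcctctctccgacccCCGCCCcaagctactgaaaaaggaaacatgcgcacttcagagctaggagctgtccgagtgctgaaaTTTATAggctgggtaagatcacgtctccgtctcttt
Grm2: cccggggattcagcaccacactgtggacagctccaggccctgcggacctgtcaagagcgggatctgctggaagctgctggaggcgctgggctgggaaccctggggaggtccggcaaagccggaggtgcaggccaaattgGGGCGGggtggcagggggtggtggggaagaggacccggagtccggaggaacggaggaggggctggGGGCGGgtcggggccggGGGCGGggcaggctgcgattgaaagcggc

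The capitals in the *Gria2* window match the core of the RE1 element on the opposite strand, a site known to be bound by the repressor REST, which keeps neuronal genes silent outside neurons. This match was held by 1 of the 41 windows of receptor genes and by 0.0457% of all 32851 windows of the reference. Capitals in the other windows mark the GC box GGGCGG, found in 46.3% of the receptor windows against 32.7% of all windows, and in *Glra2* also the TATA box TATAAA, found in 12.2% against 12.4%. The *Grm2* window held 3 GC boxes. The core of a PAX3 paired-domain site, GTCACGC, was in 0 of the 41 receptor windows and in 1.78% of all windows. All matches were sought on both strands, and they describe letters only, not binding.

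To compare levels between genes, CPM were divided by the length of the union of annotated exons, which can understate genes with long alternative ends. On this scale *Grik5*, which codes for the kainate subunit GluK5 and needs another kainate subunit to form a channel, was highest in wild-type embryos of both lines, with 22.6 ± 1.06 CPM per kb (SD, n = 3) in the *Carm1* line and 22.9 ± 0.433 CPM per kb in the *Pax3* line. It accounted for 27.0% and 28.2% of the summed level of all 50 genes. *Gabrp*, the pi subunit known from epithelia rather than neurons, followed with 7.78 ± 1.60 and 7.01 ± 1.82 CPM per kb. *Gria2* and *Grik3* came next in the *Carm1* line with 4.97 ± 0.103 and 4.94 ± 0.524 CPM per kb, and their libraries overlapped. In the *Pax3* line *Grik3* (6.36 ± 0.106 CPM per kb) overlapped *Gabrp* and lay above *Gria2* (4.12 ± 0.635 CPM per kb). At least 1 CPM per kb was reached by 20 receptor genes in wild-type embryos of the *Carm1* line and by 19 in those of the *Pax3* line.

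**Figure D1:**
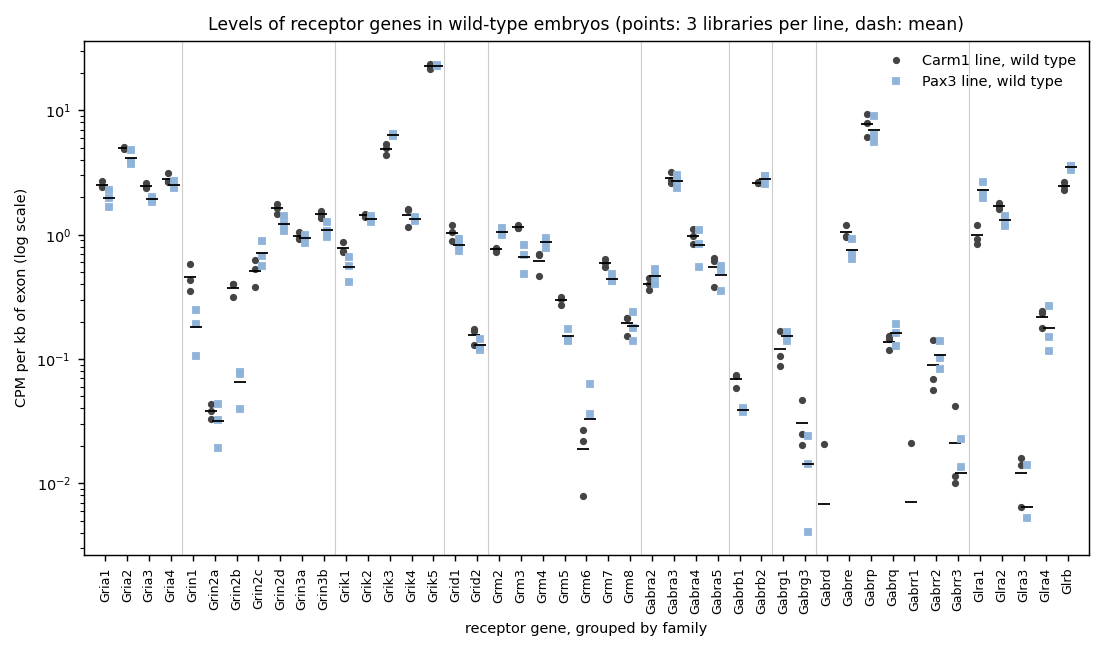
Levels of the receptor genes reported, in CPM per kb of exon on a log axis, by family, for the 3 wild-type libraries of each line, with dashes for the means. *Grik5* stands above all others drawn in both lines, libraries at 0 are not drawn, and *Gabra6* is left out because it had 0 counts in all 12 libraries.

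Among the NMDA receptor genes, *Grin1*, *Grin2b*, *Grin2d* and *Grin3b* had wild-type levels that stood apart between the lines, each higher in the *Carm1* line. This comparison was chosen after the values were seen and was not tested. TMM factors were computed within each line, so CPM of the lines do not share a scale. *Grin1*, which codes for the obligate subunit, measured 5.63, 4.17 and 3.41 CPM in wild-type libraries of the *Carm1* line and 2.39, 1.85 and 1.03 CPM in those of the *Pax3* line. *Grin2b*, the main glutamate-binding NMDA subunit of the embryonic forebrain, measured 10, 9.88 and 7.84 CPM in wild-type libraries of the *Carm1* line but 0.975, 1.97 and 1.89 CPM in those of the *Pax3* line. For *Grin2d* the margin was small, with 9.72 CPM in the lowest wild-type library of the *Carm1* line and 9.36 CPM in the highest of the *Pax3* line. *Grin3b* had wild-type means of 4.82 CPM in the *Carm1* line and 3.64 CPM in the *Pax3* line. The wild-type libraries of *Grin3a*, *Grin2a* and *Grin2c* overlapped between the lines, and strain, laboratory and line cannot be told apart here. The strand setting of the authors' counting was not given, and 32.1% of the exon bases of *Grin3b* overlap *Tmem259* and 13.5% of those of *Grin1* overlap *Grin1os*, so their counts are uncertain.

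Several members were near the limit of detection. *Gabra6*, *Gabrd*, *Gabrg3*, *Gabrr1*, *Gabrr2*, *Gabrr3*, *Glra3*, *Glra4* and *Grm6* did not pass the filter on low counts in the *Carm1* line, where none of them exceeded 13 counts in a library. The same genes and *Grin2a* did not pass in the *Pax3* line, where none exceeded 16 counts. *Gabra6*, the alpha subunit of cerebellar granule cells, is known to start after birth and had 0 counts throughout. At least 10 counts in every library were held by 37 members in the *Carm1* line and 39 in the *Pax3* line. Since a gene can pass the filter through the group in which it is higher, the counts of tested members are given only as a description.

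In Carm1 KO/KO embryos most of the receptor genes that changed were lower than in wild-type embryos, among them AMPA, NMDA, kainate, GABA-A and glycine receptor genes. Of the 41 members tested, 15 differed at an edgeR adjusted *P* below 0.05, 13 of them lower (among them *Gria2*, *Gria4*, *Grin2b*, *Grin3a*, *Grik1*, *Grik3*, *Gabra2*, *Gabra5*, *Gabrb2* and *Glra2*) and 2 higher (*Grm2* and *Glra1*). That is 36.6% of the tested members, against 13.3% of all 15811 genes tested, where 7.83% were lower and 5.49% were higher. Over the tested members the log2 fold change had a median of -0.27, and over all genes tested 0.00. In 19 members all Carm1 KO/KO libraries lay below all wild-type libraries and in 2 they lay above, whereas 15.7% and 14.3% of all genes tested, 30.0% in all, were apart in this way. The wild-type libraries summed to 554, 541 and 532 CPM over the 50 genes and the Carm1 KO/KO libraries to 465, 474 and 487 CPM, without overlap. In whole embryos, fewer neurons and less RNA per neuron cannot be told apart. Without Carm1 KO/KO replicate 1 the count of called members was 8, and 7 of the 15 calls held under all 15 alternatives, among them *Gria2*, *Grin2b*, *Gabra2*, *Glra2* and *Grm2*.

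**Figure D2:**
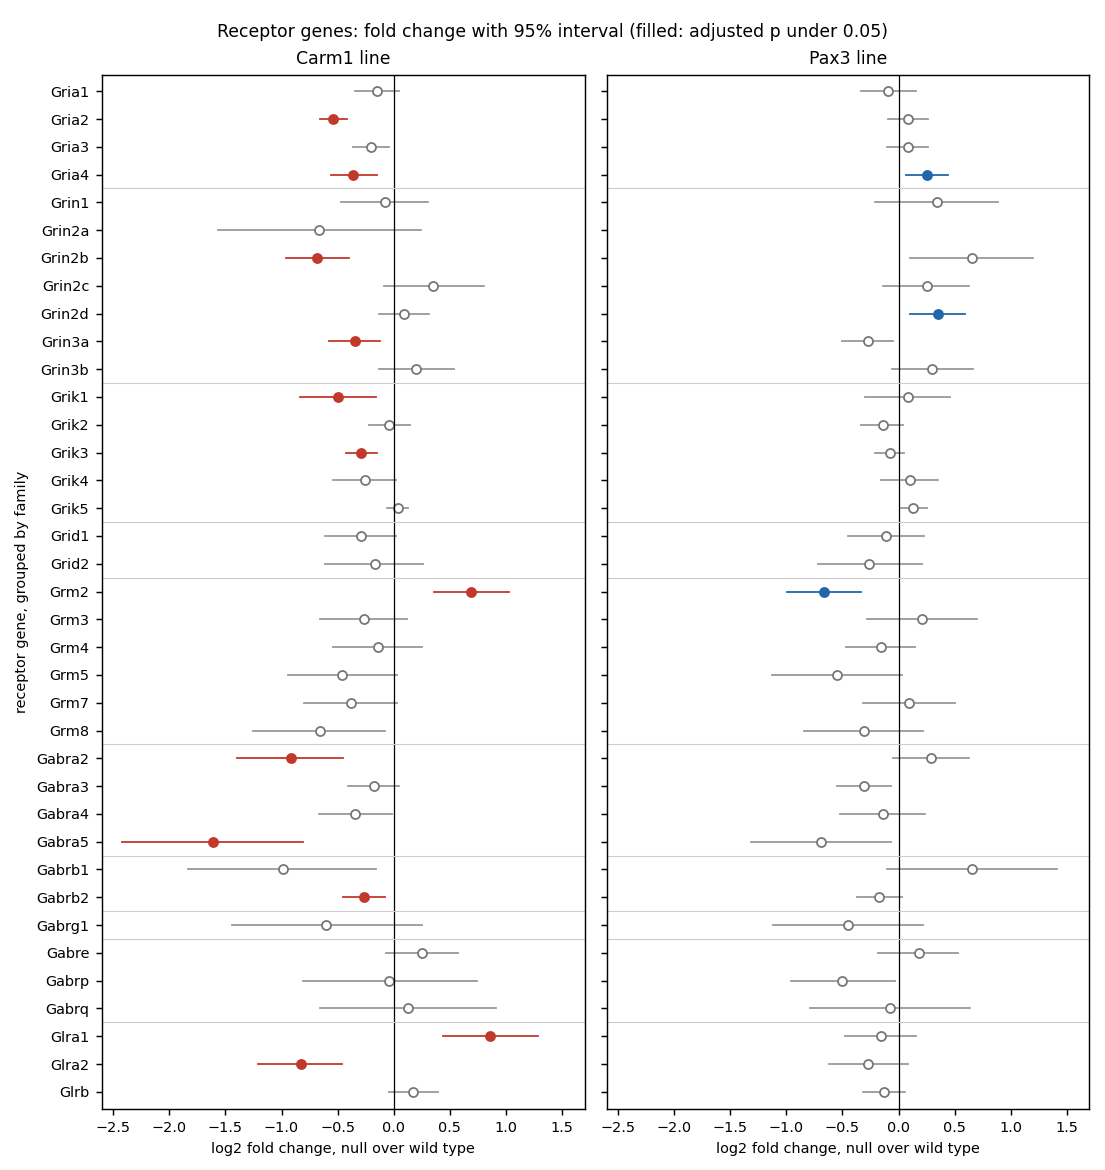
Log2 fold change of null over wild type for the tested receptor genes reported, with its 95% interval from edgeR, in the *Carm1* line (left) and the *Pax3* line (right). Filled points have an adjusted *P* below 0.05, and of those drawn 10 of 12 lie to the left of 0 in the *Carm1* line and 1 of 3 in the *Pax3* line.

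Both called AMPA receptor genes were lower in Carm1 KO/KO embryos. *Gria2* codes for GluA2, the subunit whose edited form keeps AMPA receptors impermeable to calcium. It measured 75.8, 77.2 and 79.0 CPM in wild-type and 48.1, 58.4 and 53.0 CPM in Carm1 KO/KO libraries, the most significant change among the receptor genes (log2 fold change -0.54 ± 0.06 (SE), edgeR adjusted *P* = 3.7e-08). *Gria4*, an AMPA subunit of early neurons, measured 19.9, 16.6 and 16.9 CPM in wild-type and 13.2, 12.8 and 15.7 CPM in Carm1 KO/KO libraries (log2 fold change -0.36 ± 0.10, edgeR adjusted *P* = 0.014). Its groups did not overlap either, but its call was lost without Carm1 KO/KO replicate 1 (edgeR adjusted *P* = 0.084) or 2 (0.1), or without wild-type replicate 1 (0.069). *Gria1* and *Gria3* had log2 fold changes of -0.15 ± 0.10 and -0.20 ± 0.08 and did not pass the test (edgeR adjusted *P* = 0.36 and 0.094). The 4 genes together gave 138, 132 and 134 CPM in wild-type and 95.4, 104 and 107 CPM in Carm1 KO/KO libraries.

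Of the 7 NMDA receptor genes, *Grin2b* and *Grin3a* were lower. *Grin2b* measured 5.37, 5.43 and 6.54 CPM in Carm1 KO/KO libraries, all below the wild-type values given above (log2 fold change -0.68 ± 0.14, edgeR adjusted *P* = 0.00079). *Grin3a*, whose glycine-binding subunit dampens NMDA currents, measured 11.3, 13.0 and 11.6 CPM in wild-type and 8.61, 9.80 and 9.83 CPM in Carm1 KO/KO libraries (log2 fold change -0.35 ± 0.11, edgeR adjusted *P* = 0.032). Its call was lost without any 1 of the 3 Carm1 KO/KO replicates or wild-type replicate 2, with edgeR adjusted *P* values from 0.057 to 0.18. The other 5 genes did not pass the test, with log2 fold changes from -0.67 (*Grin2a*, 6 to 16 counts per library) to 0.35 (*Grin2c*). *Grin1* had a log2 fold change of -0.08, with a 95% interval from -0.47 to 0.30.

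Of the 5 kainate receptor genes, *Grik3* and *Grik1* were called lower. *Grik3* (GluK3) measured 45.1, 48.5 and 39.2 CPM in wild-type and 36.1, 35.3 and 37.0 CPM in Carm1 KO/KO libraries (log2 fold change -0.29 ± 0.07, edgeR adjusted *P* = 0.0032). Without wild-type replicate 2, its highest library, *Grik3* was no longer called (edgeR adjusted *P* = 0.076). *Grik1* (GluK1), prominent in sensory neurons, measured 4.98, 4.90 and 5.84 CPM against 3.78, 3.58 and 3.77 CPM (log2 fold change -0.50 ± 0.17, edgeR adjusted *P* = 0.045), and its call was lost when any of 5 of the 6 libraries was left out, all but wild-type replicate 1 (edgeR adjusted *P* 0.069 to 0.16). The abundant *Grik5* measured 122, 118 and 111 CPM in wild-type and 115, 118 and 126 CPM in Carm1 KO/KO libraries, which overlapped, and the 95% interval of its log2 fold change ran from -0.06 to 0.13. *Grik2* and *Grik4* did not pass the test (log2 fold change -0.04 and -0.26), but *Grik4* was called lower without wild-type replicate 3 (-0.41, edgeR adjusted *P* = 0.043) or with a term for Y-linked counts (0.044). Neither did the delta receptor genes, of which *Grid1*, a synaptic organizer, measured 6.22, 5.28 and 7.11 CPM against 4.50, 5.26 and 5.42 CPM (log2 fold change -0.29 ± 0.16, edgeR adjusted *P* = 0.23).

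Among the metabotropic receptor genes *Grm2* moved the other way. It codes for mGlu2, a Gi-coupled receptor that lowers transmitter release. *Grm2* measured 3.85, 3.78 and 3.56 CPM in wild-type and 6.91, 5.26 and 5.89 CPM in Carm1 KO/KO libraries, without overlap (log2 fold change 0.69 ± 0.16, edgeR adjusted *P* = 0.0038). As 9.6% of its exon bases overlap *Gm28111* on the other strand, its counts could hold reads of that gene. None of the other 6 metabotropic genes tested passed the edgeR test, and of these *Grm8* had the lowest log2 fold change (-0.66, edgeR adjusted *P* = 0.13, unadjusted *P* = 0.027).

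Of 13 GABA-A receptor genes tested, 6 were called and all 6 were lower (46.2%, against 13.3% of all genes tested), all of them alpha, beta or gamma subunits. *Gabra2* and *Gabra5* code for alpha subunits common in embryonic brain. *Gabra2* measured 3.08, 2.75 and 3.41 CPM in wild-type and 1.65, 1.62 and 1.59 CPM in Carm1 KO/KO libraries (log2 fold change -0.92 ± 0.23, edgeR adjusted *P* = 0.0066). *Gabra5* measured 1.84, 1.93 and 1.12 CPM against 0.165, 0.728 and 0.707 CPM, the largest fold change among the called members (log2 fold change -1.61 ± 0.39, edgeR adjusted *P* = 0.0049). It rested on 3, 13 and 12 counts in the Carm1 KO/KO libraries, and without replicate 1 its log2 fold change was -1.18 (edgeR adjusted *P* = 0.067). *Gabra3*, the most abundant alpha gene, measured 10.3, 10.8 and 12.5 CPM against 9.32, 10.3 and 10.1 CPM, and its groups overlapped (log2 fold change -0.18 ± 0.11, edgeR adjusted *P* = 0.33). *Gabra4* did not pass (-0.35 ± 0.16, edgeR adjusted *P* = 0.16).

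Beta subunits take part in binding GABA. *Gabrb2* measured 16.5, 16.5 and 16.9 CPM against 13.8, 14.1 and 13.4 CPM (log2 fold change -0.27 ± 0.09, edgeR adjusted *P* = 0.044), and its call was lost when any 1 of the 6 libraries was left out (0.059 to 0.14). *Gabrb1* and *Gabrg1* did not pass the test (log2 fold change -0.99 ± 0.41 and -0.60 ± 0.42, edgeR adjusted *P* = 0.11 and 0.39). *Gabrp* varied widely in both groups, with 31.5, 20.7 and 26.6 CPM in wild-type and 33.1, 23.8 and 19.0 CPM in Carm1 KO/KO libraries. *Gabre* and *Gabrq* did not pass the test either (log2 fold change 0.25 and 0.13).

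Receptor genes are long: the 13 lower members spanned a median of 198 kb and the 26 members not past the threshold 232 kb, against 23.8 kb over all annotated genes tested.

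The glycine receptor genes showed opposite changes of 2 alpha subunits. *Glra2*, the alpha subunit of fetal receptors, measured 5.04, 5.33 and 5.65 CPM in wild-type and 3.13, 2.30 and 3.59 CPM in Carm1 KO/KO libraries (log2 fold change -0.83 ± 0.18, edgeR adjusted *P* = 0.0019). *Glra1*, the alpha subunit of adult spinal cord and brainstem, measured 2.90, 2.02 and 2.24 CPM against 5.10, 3.97 and 3.77 CPM (log2 fold change 0.86 ± 0.21, edgeR adjusted *P* = 0.0039). Neither gene's groups overlapped. The call of *Glra1* was lost without Carm1 KO/KO replicate 1 (log2 fold change 0.71, edgeR adjusted *P* = 0.056), and 5.8% of its exon bases overlap *Gm12236* on the other strand. Of the level of the glycine receptor genes per kb, *Glra2* held 31.4% ± 1.19 (SD, n = 3) in wild-type and 16.5% ± 3.11 in Carm1 KO/KO embryos, whereas *Glra1* held 18.4% ± 3.92 and 30.8% ± 3.49. *Glrb*, the beta subunit that binds gephyrin, measured 10.6, 12.3 and 11.6 CPM against 14.2, 12.1 and 12.8 CPM and did not pass the test (log2 fold change 0.17 ± 0.11, edgeR adjusted *P* = 0.3).

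**Figure D3:**
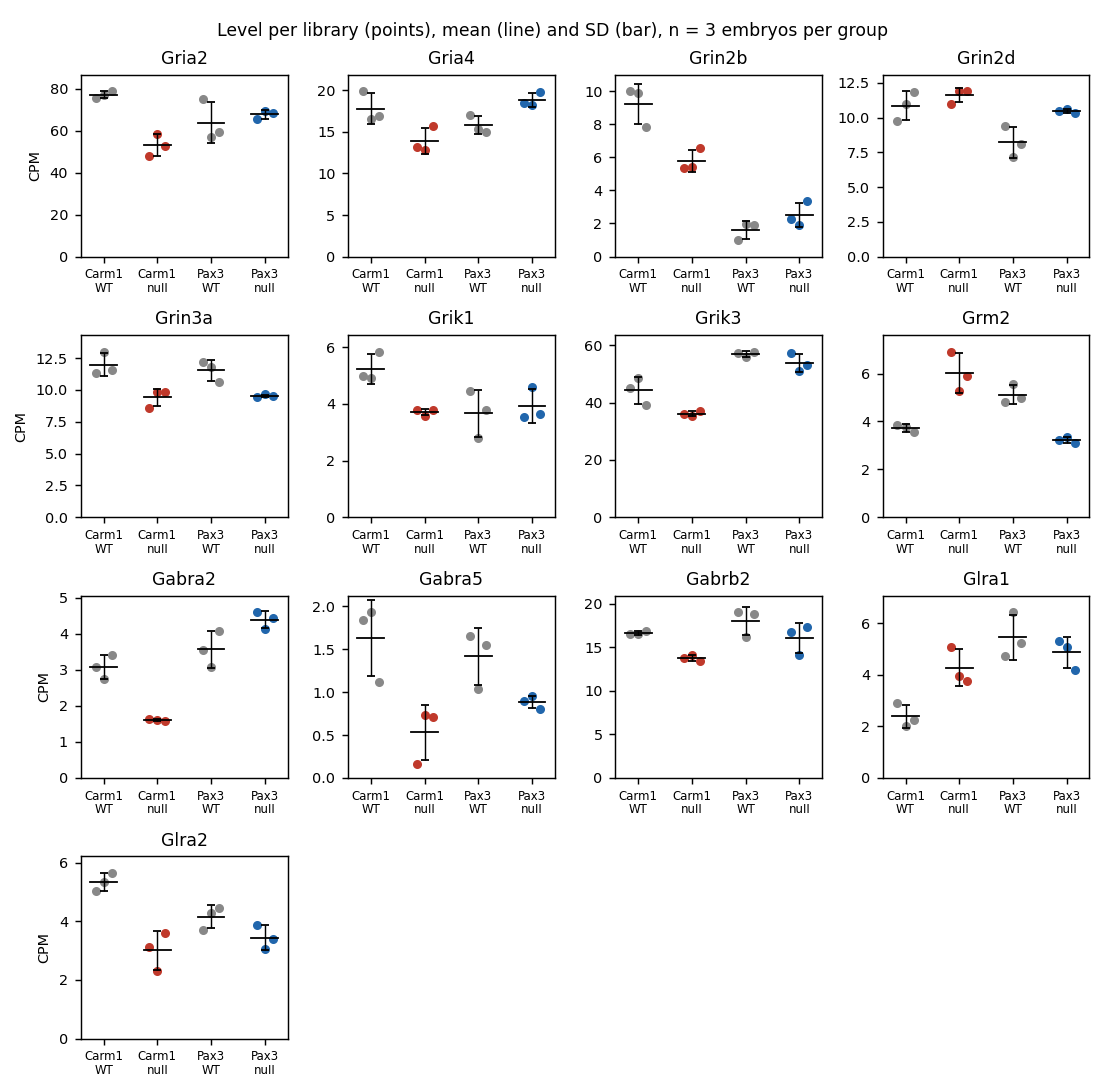
CPM per library (points) with mean and SD (n = 3 embryos per group) for 13 receptor genes with an adjusted *P* below 0.05 in either line. In the *Carm1* line the groups of every gene shown except *Grin2d* are apart, and *Grm2* is higher in Carm1 KO/KO but lower in Pax3 Sp2H/Sp2H embryos than in their wild-type controls.

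In Pax3 Sp2H/Sp2H embryos few receptor genes changed. Of 40 members tested, 3 were called (7.50%), against 24.5% of all 15724 genes tested, of which 14.0% were higher and 10.5% lower. Their log2 fold changes had a median of -0.08 (0.00 over all genes tested), and the summed level overlapped between the groups, with 531, 498 and 502 CPM in wild-type and 506, 506 and 512 CPM in Pax3 Sp2H/Sp2H libraries. In 5 members all Pax3 Sp2H/Sp2H libraries lay above the wild-type libraries and in 8 they lay below, whereas 20.7% and 18.9% of all genes tested, 39.6% in all, were apart in this way. *Grm2* was lower, at 4.83, 5.56 and 4.98 CPM in wild-type and 3.22, 3.37 and 3.10 CPM in Pax3 Sp2H/Sp2H libraries (log2 fold change -0.66 ± 0.16, edgeR adjusted *P* = 0.0038), and it was called under all 15 alternatives.

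*Grin2d* and *Gria4* were higher in Pax3 Sp2H/Sp2H embryos by small margins. *Grin2d*, an NMDA subunit of embryonic brainstem and spinal cord, measured 9.36, 7.18 and 8.07 CPM in wild-type and 10.5, 10.6 and 10.3 CPM in Pax3 Sp2H/Sp2H libraries (log2 fold change 0.35 ± 0.12, edgeR adjusted *P* = 0.033). *Gria4* measured 17, 15.3 and 15 CPM against 18.5, 18.2 and 19.8 CPM (log2 fold change 0.25 ± 0.09, edgeR adjusted *P* = 0.041). Both calls were lost when any library but wild-type replicate 1 was left out, with edgeR adjusted *P* values from 0.076 to 0.11 for *Grin2d* and from 0.066 to 0.19 for *Gria4*. Once length and GC content were modelled as offsets, the log2 fold change of *Grin2d* was 0.15 (edgeR adjusted *P* = 0.43). *Grin2d* also overlaps *Gm45441* with 9.7% of its exon bases. *Grin3a*, called lower in the *Carm1* line, did not pass the test here (log2 fold change -0.27, edgeR adjusted *P* = 0.067). It was called lower without wild-type replicate 3 (0.047) or in a fit of all 12 libraries (0.039).

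None of the GABA-A, glycine, kainate or delta receptor genes passed the edgeR test in the *Pax3* line, although 4 of them (*Gabra3*, *Gabra5*, *Gabrp* and *Grik5*) were below an unadjusted *P* of 0.05, and DESeq2 called 1 receptor gene in all, *Grm2*. *Grik5* measured 117, 121 and 117 CPM in wild-type and 129, 136 and 124 CPM in Pax3 Sp2H/Sp2H libraries (log2 fold change 0.13 ± 0.05, edgeR adjusted *P* = 0.075). *Gabra3* measured 10.9, 9.32 and 11.9 CPM against 8.58, 8.19 and 9.24 CPM (-0.31 ± 0.12, edgeR adjusted *P* = 0.054), and it was called without wild-type replicate 2 (0.021) or in a fit of all 12 libraries (0.031). *Gabrp* measured 21.6, 30.6 and 18.9 CPM against 14.1, 17.6 and 18.3 CPM (-0.50 ± 0.20, edgeR adjusted *P* = 0.12), and it was called without wild-type replicate 3 (-0.64, 0.0046). *Glrb* measured 16.6, 15.6 and 16.7 CPM against 14.4, 15.7 and 14.6 CPM, and *Grid1* 4.88, 4.40 and 5.54 CPM against 4.29, 3.91 and 5.56 CPM, both with overlapping groups. Summed by family, the GABA-A genes gave 113, 105 and 113 CPM against 96.3, 92.0 and 103 CPM and the glycine receptor genes 25.7, 26.6 and 26.9 CPM against 23.8, 24.3 and 22.3 CPM, in both cases without overlap.

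Whether the change differed between the lines was tested in 1 fit of all 12 libraries, and 7 of 42 members did so (16.7%), against 19.1% of all 16292 genes tested, 8.65% with a higher and 10.5% with a lower value in the *Carm1* line. The change in Carm1 KO/KO embryos minus that in Pax3 Sp2H/Sp2H embryos was 1.36 ± 0.22 on the log2 scale for *Grm2* (edgeR adjusted *P* = 3.6e-05) and 1.03 ± 0.25 for *Glra1* (0.0037). It was negative for *Gria2* (-0.61 ± 0.12, edgeR adjusted *P* = 0.00097), *Grin2b* (-1.32 ± 0.29, 0.0017), *Gabra2* (-1.20 ± 0.27, 0.0016), *Gria4* (-0.60 ± 0.14, 0.0025) and *Gabrb1* (-1.64 ± 0.53, 0.029). In the *Pax3* line *Gria2* measured 75.3, 57.3 and 59.4 CPM in wild-type and 65.6, 69.3 and 68.7 CPM in Pax3 Sp2H/Sp2H libraries, which overlapped, but it was called higher without wild-type replicate 1 (log2 fold change 0.22, edgeR adjusted *P* = 0.015) or with length and GC offsets (0.29, 0.0042). *Grin2b* measured 2.28, 1.91 and 3.35 CPM in Pax3 Sp2H/Sp2H libraries, overlapping the wild-type values above, and it was called higher with no filter, with a term for Y-linked counts or in the fit of all 12 libraries (log2 fold change 0.64 to 0.91, edgeR adjusted *P* 0.0061 to 0.044). *Gabra2* measured 3.56, 3.07 and 4.08 CPM against 4.60, 4.14 and 4.45 CPM, with all Pax3 Sp2H/Sp2H libraries above wild type. *Glra1* measured 4.73, 6.43 and 5.24 CPM against 5.32, 5.10 and 4.20 CPM, which overlapped. *Gabrb1* rested on 7 to 23 counts per library, at 1.01, 0.816 and 1.02 against 0.384, 0.616 and 0.412 CPM in the *Carm1* line and 0.536, 0.521 and 0.558 against 0.715, 0.865 and 0.975 CPM in the *Pax3* line, wild type first. Its call was lost on removal of any of 6 libraries: Carm1 KO/KO replicate 1 or 3, *Carm1* wild-type replicate 1 or 3, Pax3 Sp2H/Sp2H replicate 3 or *Pax3* wild-type replicate 1 (edgeR adjusted *P* up to 0.075). *Glra2* and *Gabra5*, called in the *Carm1* line but not in the *Pax3* line, did not pass the test of the difference (edgeR adjusted *P* = 0.11 and 0.23). Neither did *Grin3a*, *Grik1*, *Grik3* and *Gabrb2*. For *Grin3a* the difference ran from -0.17 to 0.00 on the log2 scale over the 20 alternatives.

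The genes that serve these receptors were taken from 5 fixed lists of auxiliary subunits, scaffolds, enzymes, transporters and GABA-B receptors, 56 of which were measured. In the *Carm1* line 22 of the 56 were called, 21 lower and *Homer3* higher (39.3% against 13.3% of all genes tested), and with DESeq2 13 were called. Lower were 4 of 14 auxiliary subunits, 7 of 19 scaffold genes, 3 of 10 genes of glutamate synthesis and transport, 6 of 11 genes of GABA and glycine synthesis and transport, and 1 of 2 GABA-B receptor genes. *Dlg4*, coding for the scaffold PSD-95, measured 134, 124 and 118 CPM in wild-type and 97.9, 105 and 98.6 CPM in Carm1 KO/KO libraries (log2 fold change -0.32 ± 0.05, edgeR adjusted *P* = 2.5e-05). *Gad1*, which makes GABA, measured 19.6, 19.2 and 18.4 CPM against 14.6, 14.9 and 15.6 CPM (-0.34 ± 0.09, edgeR adjusted *P* = 0.0072). *Slc12a5*, coding for KCC2, measured 35.1, 30.5 and 30.8 CPM against 28.5, 24.7 and 25.7 CPM (-0.29 ± 0.08, edgeR adjusted *P* = 0.0092). Without Carm1 KO/KO replicate 1 or 2 the count was 14 each.

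In the *Pax3* line 16 of the 56 were called, 10 higher and 6 lower (28.6% against 24.5% of all genes tested). *Slc12a5* was higher here, at 21.5, 26.6 and 25.2 CPM in wild-type and 31.4, 32.5 and 35.7 CPM in Pax3 Sp2H/Sp2H libraries (log2 fold change 0.44 ± 0.09, edgeR adjusted *P* = 0.00055). *Slc32a1*, the vesicular transporter of GABA and glycine, measured 14.9, 14.2 and 15.1 CPM against 21.0, 19.5 and 19.5 CPM (0.44 ± 0.09, edgeR adjusted *P* = 0.0006). *Slc17a6*, the vesicular glutamate transporter VGLUT2, measured 43.8, 37.4 and 44.1 CPM against 35.4, 34.0 and 36.5 CPM (-0.24 ± 0.08, edgeR adjusted *P* = 0.024). The change of *Slc12a5* differed between the lines (-0.72 ± 0.12 on the log2 scale, edgeR adjusted *P* = 5.7e-05), as did those of *Shank1* (-0.62 ± 0.08, 4.3e-06) and *Slc32a1* (-0.57 ± 0.13, 0.0017). *Homer3* was higher and *Gabbr2* lower in each line.

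Markers of the cells that hold these receptors moved as well, and their part in the results was not tested. In the *Carm1* line 6 of 14 neuronal markers were lower and none higher, with a median log2 fold change of -0.16 and a summed level of 2509 to 2675 CPM in wild-type against 2308 to 2369 CPM in Carm1 KO/KO libraries. Of 10 neural progenitor markers 9 were higher and 1, *Slc1a3*, which is also on the list of glutamate transporters, was lower, with sums of 1067 to 1130 against 1359 to 1413 CPM. Of 9 sensory neuron markers 5 were lower. Of all genes tested in that line 7.83% were lower and 5.49% higher. Markers of other tissues moved too. Lower were 8 of 8 hepatocyte markers (1392 to 1697 against 743 to 869 CPM) and 6 of 8 skeletal muscle markers (790 to 948 against 600 to 658 CPM). So were 4 of 8 heart muscle markers (318 to 366 against 258 to 275 CPM) and 5 of 8 erythroid markers, whose sums overlapped. Higher were 1 erythroid marker, 1 of 6 markers of neural crest glia and 2 of 6 endothelial markers. None of the glial or endothelial markers was called lower, and no sympathetic neuron marker was called. In the *Pax3* line 7 of 14 neuronal markers were lower and none higher. Their sums were 2478 to 2677 CPM in wild-type against 2211 to 2376 CPM in Pax3 Sp2H/Sp2H libraries. Sensory neuron markers summed to 110 to 117 against 71.0 to 76.8 CPM there, and 6 of 10 neural progenitor markers were higher (10.5% of all genes tested were lower and 14.0% higher). Of 6 markers of neural crest glia 3 were lower and 1 higher, and of 6 sympathetic neuron markers 2 were lower and 1 higher. All 8 skeletal muscle markers were lower there (469 to 538 against 259 to 298 CPM), while 4 of 8 heart muscle markers were higher and none lower. No marker of any list was at 0 in a library.

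**Figure D4:**
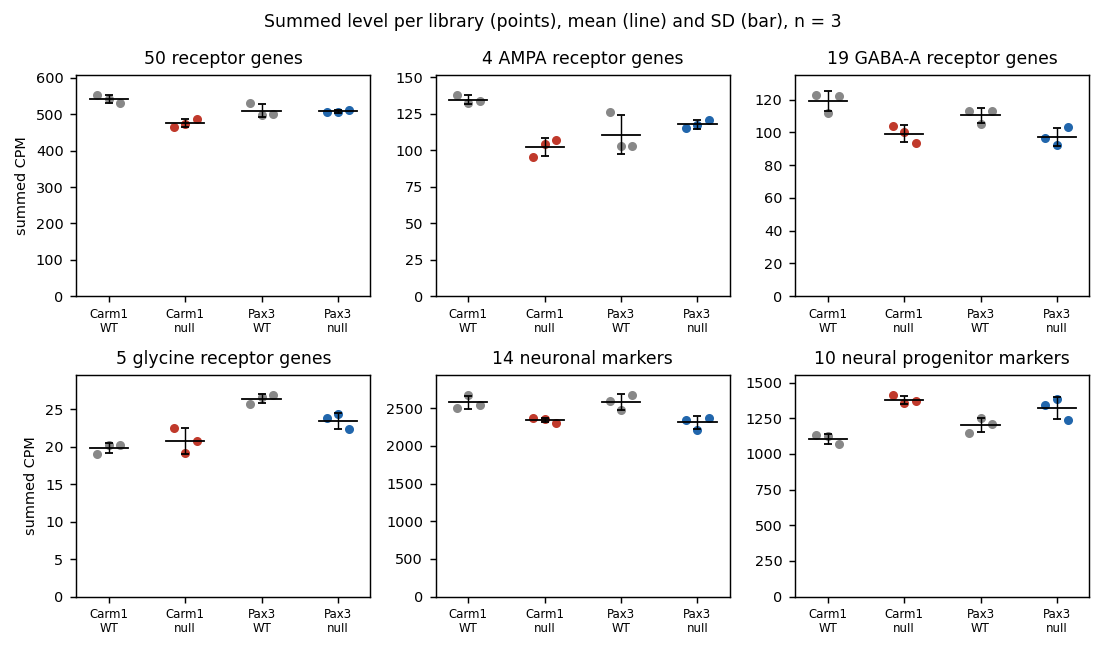
Summed CPM per library (points), mean and SD (n = 3) of the 50 receptor genes, of the AMPA, GABA-A and glycine receptor genes, and of neuronal and neural progenitor markers. The sums of all 50 receptor genes in the *Carm1* groups (532 to 554 and 465 to 487 CPM) do not overlap, those of the *Pax3* groups do, and neuronal markers are lower in the null embryos of both lines.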

How the data were processed

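Polyadenylated RNA of whole E12.5 embryos was sequenced, and the authors aligned the reads to mm10 with STAR and counted them on exons with featureCounts (versions and strand setting not given in the sources used here). The deposited values are raw counts per gene and library, not normalized. Groups and replicate numbers came from the sample labels. Each line was tested alone with edgeR 4.0.16 in R 4.3.3 (quasi-likelihood test, TMM factors, filterByExpr), with Benjamini-Hochberg adjustment of *P* over all genes tested (threshold 0.05). Checked on simulated counts with 200 genes changed by 1 on the log2 scale, the fit recovered 90.4% of the changed genes tested among 15811 genes in the *Carm1* line and 91.9% among 15724 in the *Pax3* line, with 6.81% and 4.23% of calls false. For the difference it recovered 76.9% among 16292 genes, with 7.27% of calls false. Most receptor changes called within a line were smaller than 1 on the log2 scale, and recovery of such changes was not simulated. The alternatives, DESeq2 1.42.0 among them, are described in the closing section. Coordinates and exon lengths came from GENCODE of GRCm38, which matched all 50 receptor genes and 21777 of 23420 symbols. Values per library are given for the reported receptor genes called in either line and for the member of each family with the highest mean CPM, and *Grin1* and *Gabrb1* were added after their values were seen. Members and lists were chosen with earlier results of these data known. A few genes are counted in totals but not reported here. *P* values set the difference between groups against the spread between embryos within groups. With 3 libraries against 3, a permutation test of 1 gene could not go below 0.1.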

Additional observations from a re-analysis of the deposited data

Results flagged for a closer look

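The change in Carm1 KO/KO embryos minus the change in Pax3 Sp2H/Sp2H embryos passed the edgeR test of the difference for 7 of 42 receptor genes (16.7%, against 19.1% of all genes tested), in log2 units: 1.36 for *Grm2*, 1.03 for *Glra1*, -0.61 for *Gria2*, -0.60 for *Gria4*, -1.20 for *Gabra2*, -1.32 for *Grin2b* and -1.64 for *Gabrb1*. *Grm2* was called in both lines with opposite signs. So was *Gria4*, but its call was lost under 4 of 15 alternatives in the *Carm1* line and 8 of 15 in the *Pax3* line. *Gria2*, *Grin2b*, *Gabra2* and *Glra1* were called in the *Carm1* line and not in the *Pax3* line, where *Gria2* and *Grin2b* were called higher under some alternatives. *Gabrb1* was called in neither line. The difference was called under all 20 alternatives for *Grm2*, *Glra1*, *Gria2*, *Gria4*, *Gabra2* and *Grin2b*. Line, strain and laboratory cannot be told apart in these values.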

How the results depend on the processing

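Alternatives were DESeq2, RLE or upper-quartile factors, no filter or 10 counts in every library, all 12 libraries in 1 fit, the replicate number as a block, a term for Y-linked counts, offsets for length and GC content, and leaving out each library. No called receptor gene changed sign under any of them. DESeq2 called 10 receptor genes in the *Carm1* line (15 with edgeR), 1 in the *Pax3* line (3) and 6 for the difference (7), and 13 partner genes in the *Carm1* line (22). One fit of all 12 libraries called 5 receptor genes in the *Pax3* line. Leaving out 1 library gave 8 to 13 receptor genes in the *Carm1* line (8 without Carm1 KO/KO replicate 1), 1 to 4 in the *Pax3* line (1 without any 1 of the 3 Pax3 Sp2H/Sp2H replicates), 6 to 8 for the difference, and 14 to 20 and 11 to 14 partner genes. Same-numbered samples did not vary together in every pair (correlations of their deviations -0.042 to 0.000822 in the *Carm1* line and -0.0916 to 0.227 in the *Pax3* line). As deviations were taken within groups of 3 libraries, these values cannot settle whether the numbers pair the samples. With the replicate block 12, 4 and 7 receptor genes and 20 and 17 partner genes were called. With RLE factors, summed receptor levels shifted by at most 0.00469 on the log2 scale. Over all genes, 2106 were called in the *Carm1* line, but 1224 and 1381 without Carm1 KO/KO replicates 1 and 2 and 1349 without wild-type replicate 2, and 3851 in the *Pax3* line, but 2565 and 2454 without Pax3 Sp2H/Sp2H replicates 1 and 3. The cause of these shifts was not tested. Calls of members near 10 counts per library, such as *Gabra5* and *Gabrb1*, depended on single libraries. Some alternatives added calls beyond those given. In the *Pax3* line *Gabrp* was called with the replicate block (log2 fold change -0.48, edgeR adjusted *P* = 0.006) and *Gabra3* with RLE factors. For the difference, added calls included *Gria3* with length and GC offsets (edgeR adjusted *P* = 0.02). They also included *Grik1* without *Pax3* wild-type replicate 1 (0.049) and *Grik3* without *Carm1* wild-type replicate 3 (0.029).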
